A study of Homo sapiens with 18 samples.

Results

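The keratin genes KRT7, KRT8, KRT18, KRT19, KRT80 and KRT81 were followed through 18 RNA-seq libraries of the MCF10 breast progression series. They are the 6 rows, of 35933 genes with values, whose symbols were listed as simple or luminal keratins. MCF10A is a spontaneously immortalized, non-malignant human breast epithelial line. The premalignant MCF10AT1 is its descendant with mutated HRas, and the malignant MCF10CA1h was obtained from MCF10AT1 by way of mouse xenografts. Each line had 3 libraries (replicates a, b and c) of negative-control CRISPR cells and 3 of METTL3 CRISPR cells. All groups carried a transfected Cas9 construct with mCherry, either with a control guide or with a guide against exon 1 of METTL3, the catalytic subunit of the complex that writes N6-methyladenosine (m6A) on mRNA. Cells were sorted on mCherry and taken through single-cell dilution, so each group stands for 1 selected cell line, and the spread between its 3 libraries is not a spread between clones. Nothing in the labels says whether replicates were separate cultures, so the p-values measure only the spread between these libraries, which may be technical.

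Keratins are the intermediate filament proteins of epithelia. A filament is built from pairs of an acidic type I and a basic type II keratin, and an unpaired keratin is usually degraded. KRT8 (type II) and KRT18 (type I) are the standard pair of simple, single-layered epithelium. KRT7 (type II) and KRT19 (type I) join them in glandular and ductal cells, and in the breast KRT19 is a classical luminal marker. KRT80 is a type II keratin of epithelia, and KRT81 belongs by sequence to the type II hair keratins although it is also found in breast cancer cells. Basal and myoepithelial breast cells instead use KRT5 with KRT14, and stratified or stressed epithelium adds KRT6, KRT16 and KRT17.

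In the GRCh38 annotation (GENCODE), 5 of the 6 genes lie within 0.784 megabases of chromosome 12. KRT80 (ENSG00000167767) spans 52168996 to 52192014 on the minus strand, and KRT7 (ENSG00000135480) spans 52232520 to 52252186 on the plus strand. KRT81 (ENSG00000205426) lies at 52285913 to 52291534 on the minus strand, inside the span of its plus-strand relative KRT86 (52249300 to 52309163). KRT8 (ENSG00000170421) at 52897187 to 52949954 on the minus strand and KRT18 (ENSG00000111057) at 52948871 to 52952906 on the plus strand overlap by 1084 bases. KRT19 (ENSG00000171345) is apart from them on chromosome 17, at 41523617 to 41528308 on the minus strand. The antisense transcript KRT7-AS lies wholly inside KRT7.

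Because KRT81 had some of the highest values of the set, its closest relative is shown beside it. The coding sequences of KRT81 and KRT86 were 90.1% identical, against 61.9% for KRT81 and KRT7. Below, coding bases 1231 to 1320 of both canonical transcripts are printed 5′ to 3′, with the 17 bases that differ in capitals. The stretch was picked for having the most differing bases among windows at equal offsets in the 2 coding sequences, without alignment. Windows above a set limit of differing bases were left out. The stretch is less alike than the whole coding sequences. The KRT81 stretch runs over exons 7 to 9 at chr12:52286453-52287118 on the minus strand, and the KRT86 stretch over exons 9 to 11 at chr12:52306264-52308444 on the plus strand, introns left out.
KRT81: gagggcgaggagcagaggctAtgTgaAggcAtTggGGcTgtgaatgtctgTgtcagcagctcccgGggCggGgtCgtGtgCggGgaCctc
KRT86: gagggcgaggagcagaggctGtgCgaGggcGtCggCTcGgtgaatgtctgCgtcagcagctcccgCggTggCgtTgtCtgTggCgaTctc
Of all 31-base words in the KRT81 transcript, 43.2% also occurred in KRT86 transcripts. Even so, the value of KRT86 was only 0.0504% to 0.23% of that of KRT81 in the same library, and KRT83, which shared 18.4% of the words, stayed between 0 and 2.34. KRT8 and KRT18 share words with many processed copies elsewhere in the genome (58.6% and 66.9% of their words occurred in some other keratin gene or copy). The 22 listed KRT8 copies summed to 0.512% to 6.65% of KRT8, and the 37 KRT18 copies to 0.0342% to 0.278% of KRT18. How reads were divided among such copies, and between KRT7 and KRT7-AS (0.402% to 1.88% of KRT7), was decided by the pseudo-alignment, so these values carry that uncertainty.

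The values were normalized counts, scaled by the study with DESeq2. They summed to between 21347352 and 31681834 per library, and the original depth per gene is unknown. METTL3 mRNA, the target, read 752, 686 and 459 in MCF10A controls and 939, 981 and 510 in MCF10A METTL3 CRISPR cells. In MCF10AT1 it read 968, 1016 and 805 against 816, 752 and 902, and in MCF10CA1h 1022, 1102 and 1280 against 825, 745 and 843. Only MCF10CA1h passed the test, with a log2 fold change of -0.49 (SE 0.12, limma adjusted p = 0.0234), and that call was lost without MCF10CA1h control c (adjusted p = 0.0906) or without METTL3 CRISPR b (0.0854). A guide that disrupts the coding frame need not lower the mRNA, and protein was not analysed here. The epithelial marker CDH1 was between 2105 and 8321 in controls, and markers of both breast lineages were present. Of 20 mesenchymal markers, 12 to 18 also had a mean of at least 10 in a control group. VIM was 23486 to 28825 in MCF10CA1h controls, above CDH1 there (2974 to 4148). Of 21 luminal markers, 13 to 15 had a mean of at least 10 in a control group. EPCAM was 3494 to 4291 and CD24 2628 to 5603 in MCF10AT1 controls, the control group where both were highest. EPCAM was 418 to 965 in MCF10A controls, and CD24 was 397 to 682 in MCF10CA1h controls. ESR1 never exceeded 26.6 and KRT19 never exceeded 60.4. The basal keratin KRT5 was between 36863 and 215309 in all control libraries. The set is called here by its genes. PTPRC, a white blood cell marker, was between 0 and 5.31. It is 1 of 8 blood and endothelial markers, of which 3 to 4 had a mean of at least 10 in a control group. CD68 averaged 1139 in MCF10A controls, and PECAM1 was 225 to 849 in MCF10AT1 controls.

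KRT7, KRT81 and KRT18 were among the most abundant mRNAs of every group, KRT8 followed, KRT80 spanned a wide range and KRT19 was near absent. Per kilobase of canonical transcript, which allows levels of different genes to be compared, KRT7 averaged 17931 in MCF10A controls, 47641 in MCF10AT1 controls and 63632 in MCF10CA1h controls. By that measure it ranked 113th, 78th and 31st of 17677 protein-coding genes. KRT81 stood at 13726, 53175 and 52565 per kilobase (ranks 125, 72 and 44), and KRT18 at 9195, 23804 and 27347 (ranks 167, 110 and 97). KRT8 was lower than its partner KRT18 in every group, with 2949, 11245 and 14084 per kilobase in the controls. KRT80 moved from rank 10720 in MCF10A controls to rank 3782 in MCF10AT1 controls. KRT19, at 2.76, 23.8 and 5.75 per kilobase, never ranked above 10508. In bulk RNA, fewer cells carrying a transcript cannot be told apart from less transcript per cell. Together the 6 genes made up 0.224% to 0.39% of the library in MCF10A controls, 0.526% to 1.23% in MCF10AT1 controls and 1% to 1.22% in MCF10CA1h controls.

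**Figure D1:**
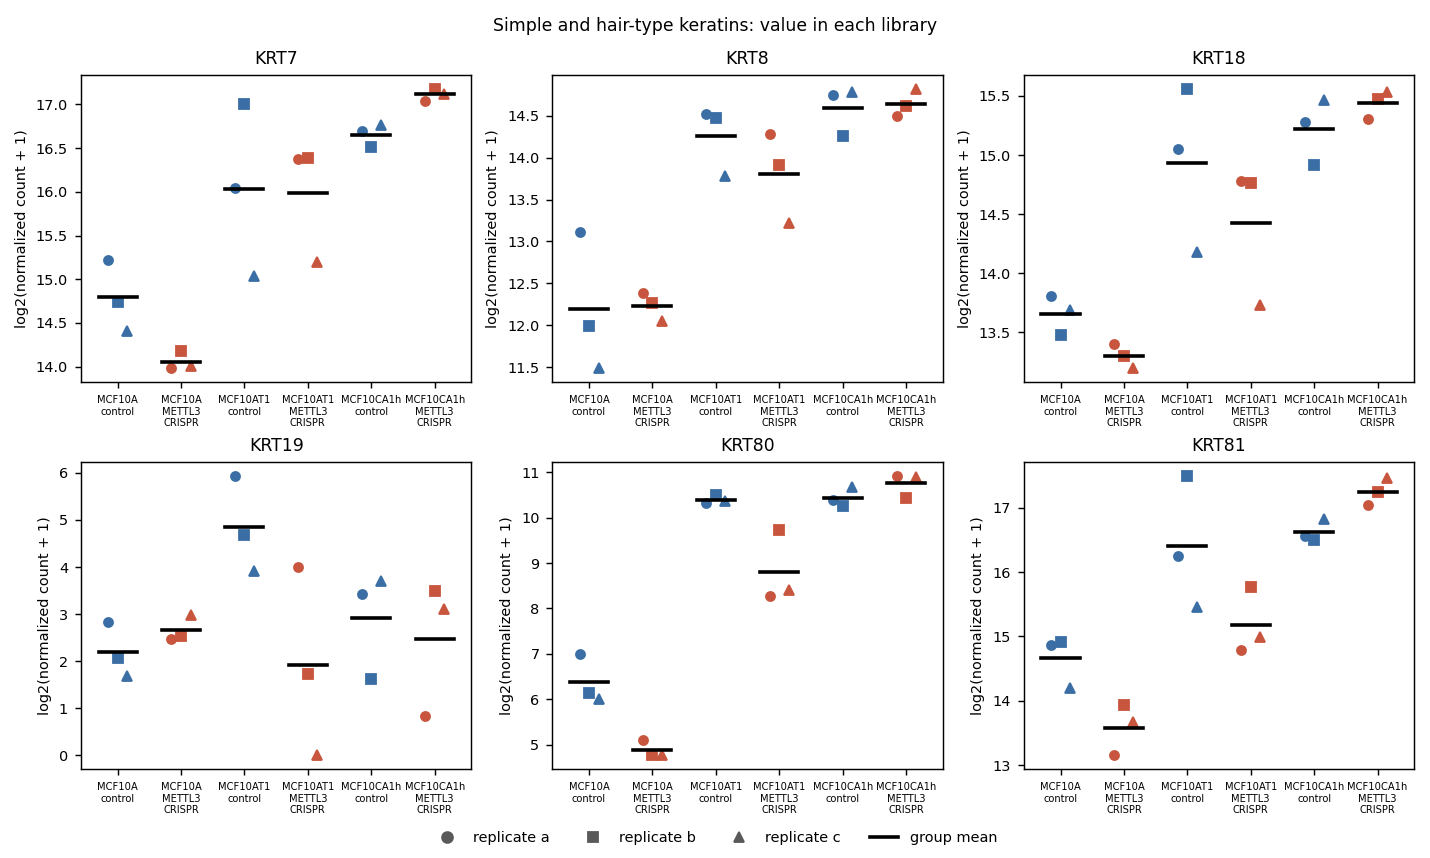
Value of each of the 6 keratins in each library, as log2(normalized count + 1), by line and CRISPR group; points are libraries (shape gives the replicate letter, blue control, red METTL3 CRISPR), black bars are means of the log2 values, and each panel has its own scale. KRT7, KRT8, KRT18, KRT80 and KRT81 have their lowest means in the MCF10A groups, and KRT19 reaches at most 60.4 normalized counts in any library.

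Ordered by group mean, KRT7 ran from MCF10A METTL3 CRISPR (17063 ± 1297, SD, n = 3) through MCF10A control (29137 ± 8327), MCF10AT1 METTL3 CRISPR (69307 ± 27499), MCF10AT1 control (77416 ± 49423) and MCF10CA1h control (103403 ± 9244) to MCF10CA1h METTL3 CRISPR (142054 ± 6816). Neighbours in that order had overlapping ranges except the first pair and the last pair, which are the 2 arms of MCF10A and of MCF10CA1h. KRT8 and KRT18 kept the same order of groups, although for KRT8 the arms of each line overlapped and the only gap lay between MCF10A control and MCF10AT1 METTL3 CRISPR. KRT80 also kept that order, with no overlap up to MCF10AT1 control and overlap among the top 3 groups. KRT81 differed only in that MCF10AT1 control (102575 ± 73236) and MCF10CA1h control (101397 ± 12617) changed places, with overlapping ranges. KRT19 had another order, with MCF10AT1 control (33.1 ± 24.3) on top and the other group means between 3.83 and 7.99, all overlapping among neighbours.

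The control libraries of the 3 lines ask how these keratins differ along the progression series. Relative to MCF10A, 5 of the 6 genes were higher in MCF10AT1 and 5 of 6 in MCF10CA1h, and none passed the test between MCF10AT1 and MCF10CA1h. The MCF10AT1 count includes KRT19, which met the filter on low values only through MCF10AT1 controls. The fits used limma on log2(value + 1) over genes with a mean of at least 10, with Benjamini-Hochberg adjustment over all genes tested and a threshold of 0.05. Of all genes, 28.1% passed in MCF10AT1 against MCF10A, 37.8% in MCF10CA1h against MCF10A and 21.8% in MCF10CA1h against MCF10AT1. The median log2 fold change over the 6 genes was 1.90, 1.91 and 0.26 in these comparisons, beside -0.01, -0.06 and 0.05 over all genes. The 3 comparisons share control libraries and are not independent.

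KRT80 differed most. It read 127, 69.4 and 62.8 in MCF10A controls, 1283, 1443 and 1328 in MCF10AT1 controls, and 1345, 1231 and 1628 in MCF10CA1h controls. The ranges of MCF10A and of the other lines are far apart. The fold was 16.2 (95% confidence interval 10.6 to 24.9, adjusted p = 9.2e-05) in MCF10AT1 and 16.7 (10.9 to 25.6, adjusted p = 3.2e-05) in MCF10CA1h. KRT19, near the floor of the data, is described last. KRT8 went from 8837, 4080 and 2867 in MCF10A to 23432, 22713 and 14037 in MCF10AT1 and 27614, 19623 and 28141 in MCF10CA1h. Every library of the later lines was above every MCF10A control, with folds of 4.16 (2.28 to 7.62, adjusted p = 0.00693) and 5.28 (2.89 to 9.66, adjusted p = 0.00175). Its partner KRT18 was higher by a fold of 2.41 (1.46 to 3.99, adjusted p = 0.0204) in MCF10AT1 and 2.95 (1.79 to 4.87, adjusted p = 0.00542) in MCF10CA1h.

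KRT81 read 29770, 30763 and 18900 in MCF10A controls against 77634, 185024 and 45067 in MCF10AT1 controls and 96196, 92212 and 115784 in MCF10CA1h controls. The MCF10AT1 libraries covered a wide range, with replicate b highest and replicate c lowest, but none reached down to MCF10A. The folds were 3.34 (1.68 to 6.65, adjusted p = 0.0204) and 3.9 (1.96 to 7.75, adjusted p = 0.00796). KRT7 showed the same scatter, with 67600, 131011 and 33638 in MCF10AT1 controls against 38191, 27413 and 21808 in MCF10A. Its ranges overlapped there and it missed the threshold (fold 2.35, 1.21 to 4.57, adjusted p = 0.0554). In MCF10CA1h controls, at 105972, 93146 and 111090, it was higher than in MCF10A by a fold of 3.63 (1.87 to 7.05, adjusted p = 0.0086). KRT19, the classical luminal keratin, was 6.09, 3.2 and 2.2 in MCF10A, 60.4, 24.7 and 14.1 in MCF10AT1 and 9.77, 2.09 and 12.1 in MCF10CA1h. It was called higher in MCF10AT1 (log2 fold change 2.65, SE 0.74, limma adjusted p = 0.0278) but at levels near the floor of the data. Its mean met the filter only through MCF10AT1 controls (group means 3.83, 33.1 and 7.99), the group where it was called higher. With no filter on low values the call was lost (adjusted p = 0.083).

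The comparison of MCF10AT1 with MCF10A was the less secure of the 2. KRT18 lost its call without MCF10A control b (adjusted p = 0.0798), MCF10A control c (0.067) or MCF10AT1 control a (0.0681), and KRT81 without the same libraries (0.0548, 0.0867 and 0.0561). KRT19 lost it without MCF10A control b (0.087), MCF10A control c (0.0979) or MCF10AT1 control b (0.051), and fell under the filter on low values without MCF10AT1 control a. KRT7 gained a call without MCF10AT1 control c (fold change 1.73 on the log2 scale, adjusted p = 0.00217). In MCF10CA1h against MCF10A all 5 calls held whichever library was left out. KRT8 and KRT80 kept their calls in both comparisons.

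**Figure D2:**
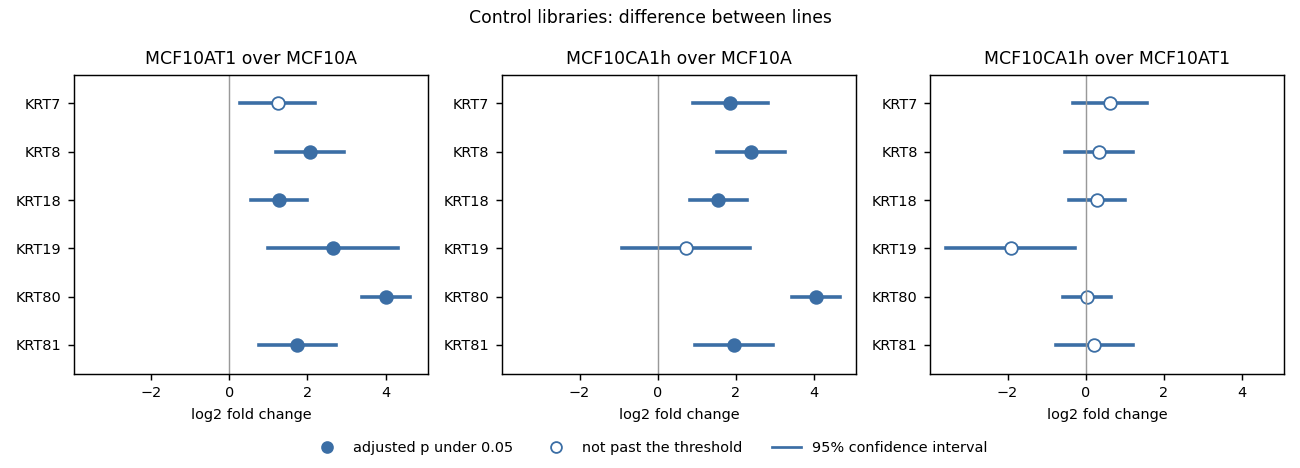
Log2 fold change of each keratin between the control libraries of the lines (circles, filled where the adjusted p is under 0.05) with 95% confidence intervals, 3 libraries per line. KRT80 lies near 4 against MCF10A in both later lines, and the intervals of MCF10CA1h over MCF10AT1 cross 0 for every gene but KRT19.

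Between MCF10CA1h and MCF10AT1 controls limma called 0 of the 6 genes at the adjusted threshold, and 1, KRT19, had an unadjusted p under 0.05 (log2 fold change -1.92, adjusted p = 0.0918). Of all 15652 genes tested, 5672 had an unadjusted limma p under 0.05. The intervals of the fold were 0.796 to 3 for KRT7, 0.694 to 2.32 for KRT8, 0.74 to 2.02 for KRT18, 0.673 to 1.58 for KRT80 and 0.587 to 2.32 for KRT81. Differences within these intervals were not excluded. KRT7 passed without MCF10AT1 control b (log2 fold change 1.11, adjusted p = 0.0377) and KRT19 without MCF10AT1 control c (-2.39, adjusted p = 0.0394).

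Of the basal and stress keratins, a list of 10 with KRT5 and KRT14, 6 of 9 tested were lower in MCF10AT1 than in MCF10A and 0 higher (median log2 fold change -1.20), among them KRT14 (-5.11), KRT6C (-2.83) and KRT6A (-2.60). In MCF10CA1h against MCF10A, 3 were higher and 2 lower of 9, with KRT13 at 3.83 and KRT6A at -1.90. Of the simple and hair keratins outside the set, 4 of 14 reached the filter on low values, with 2 higher and 1 lower in each later line, and KRT86 was higher by 1.79 and 1.81 on the log2 scale in the 2 later lines. Luminal epithelial markers were 7 higher and 1 lower of 14 tested in MCF10AT1, with ELF3, EPCAM and MUC1 furthest from 0, and 3 higher and 5 lower in MCF10CA1h, where GRHL2 (-7.65), CLDN7 (-5.95) and CLDN4 (-3.86) were lowest. Basal or myoepithelial markers were 1 higher and 9 lower of 14 in MCF10AT1 and 1 higher and 7 lower in MCF10CA1h. Mesenchymal markers were 1 higher and 8 lower of 18 in MCF10AT1 and 9 higher and 1 lower in MCF10CA1h, with sums of 10852 to 18128 in MCF10A, 4542 to 5875 in MCF10AT1 and 34928 to 40985 in MCF10CA1h controls. The part of these lists in the member values was not tested.

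Within each line the METTL3 CRISPR cells were then set against their controls, which asks whether the keratin mRNAs differ after targeting of the m6A writer. KRT80 fell in MCF10AT1, KRT7 and KRT81 rose in MCF10CA1h, and no member passed in MCF10A, where KRT19 was under the filter. Of all genes tested, 2.65% passed in MCF10A, 13.0% in MCF10AT1 and 12.8% in MCF10CA1h.

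In MCF10A, limma called 0 of 5 tested members, while 4 of the 5 had an unadjusted p under 0.05 and all 4 were lower in METTL3 CRISPR cells. Of all 15416 genes tested there, 2839 had an unadjusted limma p under 0.05. KRT80 read 33.4, 26.1 and 26.3 in METTL3 CRISPR cells against 127, 69.4 and 62.8 in controls, KRT81 9103, 15657 and 13031 against 29770, 30763 and 18900, and KRT7 16168, 18550 and 16471 against 38191, 27413 and 21808. The groups did not overlap for any of these, nor for KRT18, at 10789, 10076 and 9380 against 14337, 11398 and 13242. The share of all genes without overlap was not counted. KRT8 overlapped fully, with 5335, 4903 and 4239 inside the spread of its controls. The log2 fold changes were -1.50 (SE 0.36, adjusted p = 0.0759) for KRT80, -1.07 (SE 0.26, adjusted p = 0.0769) for KRT81, -0.74 (SE 0.22, adjusted p = 0.122) for KRT7, -0.36 (SE 0.15, adjusted p = 0.245) for KRT18 and 0.03 (SE 0.36, adjusted p = 0.977) for KRT8. The MCF10A replicate letters were taken as pairs from correlations in these same libraries (0.268, 0.303 and 0.172), not from the labels. With the letter as a block in limma 3 members passed, all lower: KRT81 (adjusted p = 0.0231), KRT80 (0.0366) and KRT7 (0.047). The share of all genes passing with the block is not given here, so this count cannot be set against it. Of the basal and stress keratins, 1 of 8 tested rose in these cells, KRT5 by a log2 fold change of 0.90.

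In MCF10AT1 the METTL3 CRISPR cells had 310, 848 and 340 of KRT80 against 1283, 1443 and 1328 in controls. All 3 were below every control library, and KRT80 fell by 1.59 on the log2 scale (SE 0.40, fold 0.332, adjusted p = 0.0366). The call was lost when any library but METTL3 CRISPR b was left out: adjusted p = 0.119 without control a, 0.0657 without control b, 0.0674 without control c, 0.124 without METTL3 CRISPR a and 0.0906 without METTL3 CRISPR c. KRT81 read 28335, 55919 and 32504 against 77634, 185024 and 45067, overlapping only through METTL3 CRISPR b and control c (log2 fold change -1.22, SE 0.54, adjusted p = 0.189, and -0.67 without control b). KRT19 read 15.1, 2.3 and 0 against 60.4, 24.7 and 14.1 (-2.94, SE 1.08, adjusted p = 0.119), and passed without METTL3 CRISPR a (-3.99, adjusted p = 0.0485). It met the filter on low values only through the controls (mean 33.1 against 5.78).

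KRT7 was the member with the smallest difference in MCF10AT1, at 84714, 85650 and 37559 against 67600, 131011 and 33638 (log2 fold change -0.04, 95% confidence interval -1.32 to 1.24, adjusted p = 0.971). KRT8, at 19882, 15446 and 9545 against 23432, 22713 and 14037, and KRT18, at 28075, 27864 and 13608 against 34007, 48394 and 18503, also overlapped (-0.45 and -0.51, adjusted p = 0.473 and 0.516). In both arms replicate c was the lowest library for KRT7, KRT8 and KRT18. With replicate letters as a block, KRT80 (adjusted p = 0.00285), KRT19 (0.0197) and KRT81 (0.0245) passed, and KRT7 (0.944), KRT8 (0.242) and KRT18 (0.219) did not. The letters met the rule for pairs here. However, the deviations of control b also correlated with those of METTL3 CRISPR a (0.321), above the same-letter value of a (0.159), so the pairing is uncertain. The share of all genes passing with this block is not given here. Without the block the intervals of KRT7, KRT8 and KRT18 reached down to -1.32, -1.29 and -1.54, and with it the SE was 0.34, 0.27 and 0.28.

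Other gene groups were called in the same MCF10AT1 cells. All 8 tested basal and stress keratins fell (median log2 fold change -4.47 beside -0.86 for the 6 members and 0.02 for all genes), with KRT15 at -8.13, KRT6A at -6.97 and KRT6B at -6.69. Of 14 luminal epithelial markers 9 fell and 1 rose, led by ESRP1 (-8.89), an epithelial splicing regulator, CLDN7 (-8.71), a tight junction protein, and CD24 (-8.35), and CDH1 was between 11.6 and 79.2 in METTL3 CRISPR cells against 2105 to 6138 in controls. Of 11 proteins that anchor keratin filaments, 5 fell, among them EPPK1 (-6.46), DSP (-3.71) and JUP (-1.46), the last 2 being desmosome components. Of 13 basal or myoepithelial markers 6 fell and 1 rose (median -1.15), and their sums overlapped between the arms, at 113659 to 141715 in controls and 65525 to 189107 in METTL3 CRISPR cells. Of 17 mesenchymal markers 10 rose and none fell, with FN1 at 10.08, and the intermediate filament genes NES (8.67), VIM (4.08) and SYNM (3.28) rose. The mesenchymal markers summed to 4542 to 5875 in controls and 139135 to 229033 in METTL3 CRISPR cells, and the luminal markers to 41893 to 57370 and 4747 to 6242. The part of these shifts in the member values was not tested. In the same cells KRT7, KRT8, KRT18 and KRT81 held ranks 88, 284, 168 and 142 of 17677 protein-coding genes per kilobase.

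In MCF10CA1h the called members were higher in METTL3 CRISPR cells. KRT7 read 135064, 148680 and 142420 in METTL3 CRISPR cells against 105972, 93146 and 111090 in controls, and KRT81 134248, 155893 and 179780 against 96196, 92212 and 115784. No METTL3 CRISPR library of either gene came down to a control. KRT81 rose by a log2 fold change of 0.62 (SE 0.13, fold 1.54, adjusted p = 0.0123) and KRT7 by 0.46 (SE 0.10, fold 1.38, adjusted p = 0.0148). KRT80 (1947, 1391 and 1919 against 1345, 1231 and 1628), KRT18 and KRT8 overlapped between the arms, with log2 fold changes of 0.32 (-0.03 to 0.66), 0.22 (-0.08 to 0.52) and 0.05 (-0.27 to 0.37), the last turning to -0.01 when libraries were scaled to equal sums. KRT19 read 0.8, 10.3 and 7.57 against 9.77, 2.09 and 12.1, under the filter. Both calls lay near the threshold, while with a library left out the log2 fold changes stayed at 0.39 to 0.51 for KRT7 and 0.52 to 0.73 for KRT81. KRT7 lost its call without control a (adjusted p = 0.0577) or METTL3 CRISPR b (0.0565), and KRT81 without control a (0.0592). Neither passed with no filter on low values, without an intensity trend or in a joint fit of all 18 libraries. Basal and stress keratins were 6 higher and 1 lower of 10 in the same comparison (KRT14 2.15, KRT6A 1.42, KRT13 -2.45). KRT7-AS, antisense to KRT7, rose as well (549 ± 67.2 to 916 ± 239, SD, n = 3; log2 fold change 0.71, adjusted p = 0.0273). In the other lines KRT7-AS was at 0.03 in MCF10A and -0.83 in MCF10AT1 (limma adjusted p = 0.98 and 0.139) beside -0.74 and -0.04 for KRT7. Without the replicate block none of these passed in the fit of each line. Whether the 2 genes differ from each other was not tested. The strand setting of the counting is not known.

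**Figure D3:**
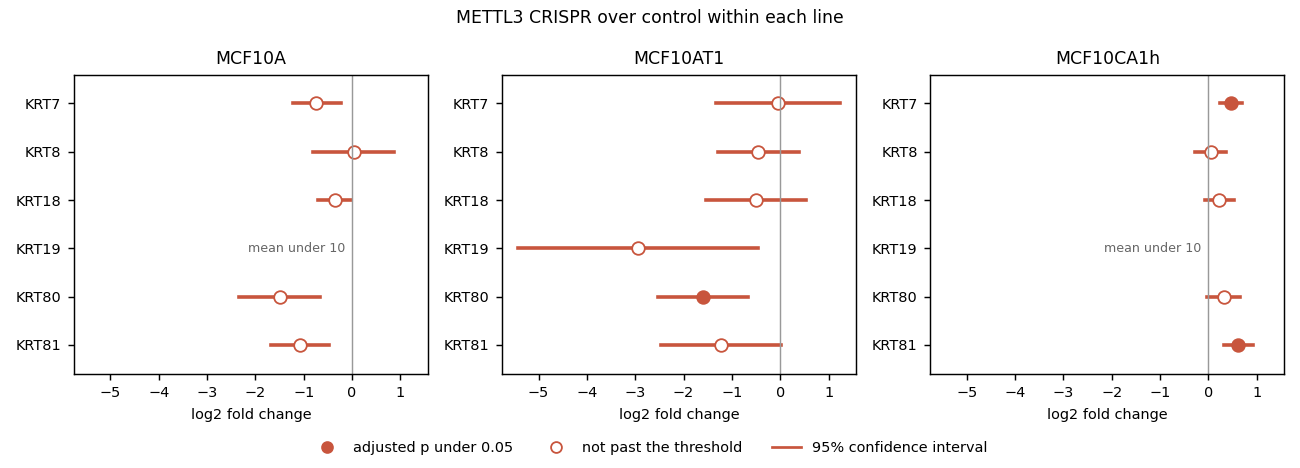
Log2 fold change of METTL3 CRISPR over control within each line (circles, filled where the adjusted p is under 0.05) with 95% confidence intervals, 3 libraries per arm. KRT80 in MCF10AT1 and KRT7 and KRT81 in MCF10CA1h are filled, and the MCF10CA1h intervals are the narrowest.

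The difference of the METTL3 CRISPR effect between lines was tested as an interaction in a fit of all 18 libraries. Here and below, effect means the difference between 2 arms, each 1 selected cell line. An interaction therefore cannot tell targeting apart from differences between the selected lines. Between MCF10CA1h and MCF10AT1, where 18.2% of all genes passed, 2 of 6 members did: the effect on KRT80 was higher in MCF10CA1h by 1.91 (SE 0.47, adjusted p = 0.00886) and that on KRT81 by 1.84 (SE 0.56, adjusted p = 0.0304). Between MCF10CA1h and MCF10A, where 5.34% passed, 1 member did, KRT80 by 1.82 (SE 0.47, adjusted p = 0.0327), while KRT81 missed it (1.70, SE 0.56, adjusted p = 0.0957), as did KRT7 (1.20, SE 0.55, adjusted p = 0.267). Between MCF10AT1 and MCF10A, where 21.6% passed, limma called 0 of 6, and 1, KRT19, had an unadjusted p under 0.05 (-3.41, SE 1.31, adjusted p = 0.076). Of all 15897 genes, 5344 had an unadjusted limma p under 0.05 there. KRT19 met the filter on low values only through MCF10AT1 controls. The letters met the rule for pairs in MCF10A and, with less certainty, in MCF10AT1. With the replicate block in limma KRT19 passed (adjusted p = 0.0389), and the share of all genes passing with it is not given here. Each interaction shares a line with another, so the 3 are not independent. In that last comparison KRT80 (-0.09, interval -1.08 to 0.90) and KRT81 (-0.14, interval -1.33 to 1.04) had intervals that reach about 1 on either side of 0.

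The weight of the 6 genes among keratins was then described. The 6 members and the 10 basal and stress keratins were summed per kilobase of canonical transcript. The members' share of that sum was 18.4% ± 4.32 (SD, n = 3) in MCF10A controls and 11% ± 0.919 in MCF10A METTL3 CRISPR cells, and 48.5% ± 2.43 and 45.6% ± 3.29 in the 2 arms of MCF10CA1h. In MCF10AT1 it was 52.5%, 69.3% and 51.6% in the controls and 96.5%, 97.9% and 96.9% in METTL3 CRISPR cells. The sum in MCF10AT1 METTL3 CRISPR cells was thus almost wholly made of KRT7, KRT81, KRT18 and KRT8, and its type I side mostly of KRT18 (9631 to 19869 per kilobase against 956 to 1189 for the listed basal type I keratins).

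Type II exceeded type I among the members in every library. The type II to type I ratio of the 6 genes was 3.78 ± 0.976 in MCF10A controls, 4.49 ± 0.903 in MCF10AT1 controls and 4.83 ± 0.429 in MCF10CA1h controls, and 2.78 ± 0.419, 4.41 ± 0.424 and 5.82 ± 0.0511 in the METTL3 CRISPR arms. With the basal keratins added, it was 1.91 ± 0.513 in MCF10AT1 controls and 4.18 ± 0.303 in MCF10AT1 METTL3 CRISPR cells, with no overlap between the arms. Within the partner pair, KRT8 over KRT18 (ratio of normalized counts) was 0.397 ± 0.203 in MCF10A controls and 0.478 ± 0.0227 in METTL3 CRISPR cells, 0.639 ± 0.151 and 0.655 ± 0.0869 in MCF10AT1, and 0.65 ± 0.0394 and 0.578 ± 0.0299 in MCF10CA1h. In that last line the arms did not overlap, with 0.695, 0.634 and 0.622 against 0.568, 0.554 and 0.611. KRT81 over KRT7 was 1.15, 1.41 and 1.34 in MCF10AT1 controls and 0.334, 0.653 and 0.865 in METTL3 CRISPR cells, again with no overlap, while in MCF10A (0.78, 1.12 and 0.867 against 0.563, 0.844 and 0.791) and MCF10CA1h (0.908, 0.99 and 1.04 against 0.994, 1.05 and 1.26) the arms overlapped. The ratios and shares were not tested.

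**Figure D4:**
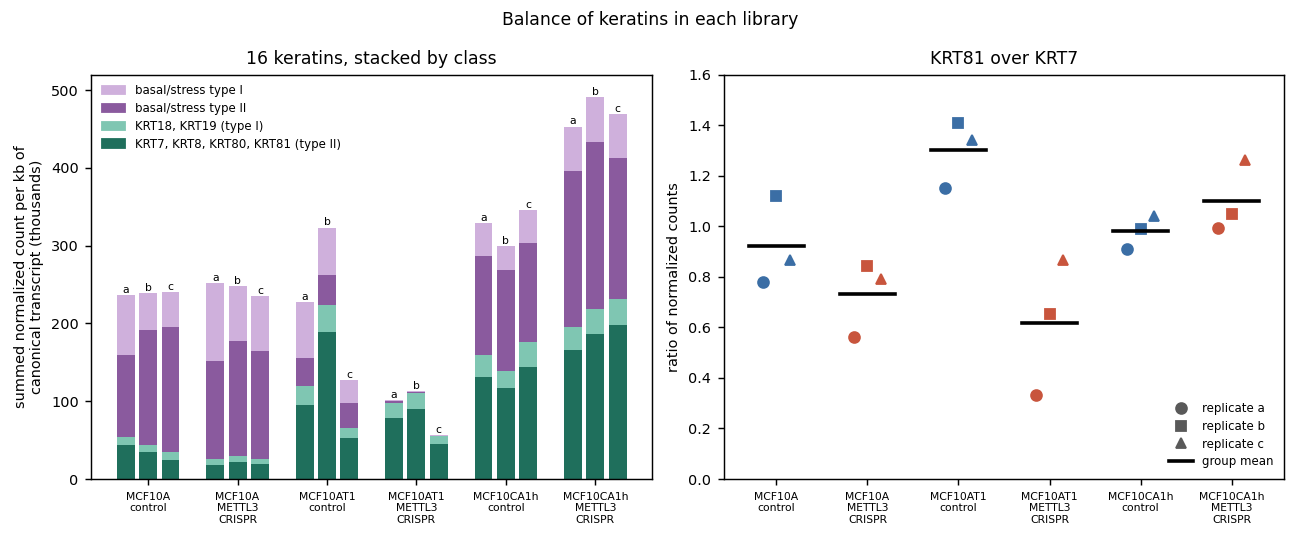
Left, stacked bars of summed normalized count per kilobase for 16 keratins in each library, with the 6 members in green and basal and stress keratins in purple, dark shades type II and light shades type I; right, the ratio of KRT81 to KRT7 in each library with group means. The purple part almost vanishes in the 3 MCF10AT1 METTL3 CRISPR libraries, and their KRT81 to KRT7 ratios, at 0.334 to 0.865, lie under all MCF10AT1 controls.

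The genes whose profile over the 18 libraries was most like each member were found by the root mean square difference of centred log2 values, where 0 is identical, among 12446 genes with a mean of at least 50. Nearest to KRT81 were KRT87P (0.41), KRT7 (0.48) and KRT86 (0.54), and KRT87P and KRT86 share 17.1% and 43.2% of KRT81's 31-base words. Nearest to KRT7 were SNRPB (0.32), NOP56 (0.33) and JPT1 (0.35), then KRT18 (0.36). KRT18 was nearest to CDK5RAP1 (0.23), DNTTIP1 (0.24) and SNRPB (0.25), and KRT8 to ADISSP (0.29), MCM7 (0.37) and GLA (0.39), with KRT18 and KRT7 at 0.42. The measure grows with a gene's own spread, which was 2.27 for KRT80 against 0.86 to 1.33 for KRT7, KRT8, KRT18 and KRT81. Nearest to KRT80 were SLC27A2 (0.75), PODXL (0.90) and ATP6V0E2 (0.99), and KRT19, in noise near 0, was nearest to MUC1 (0.83), B3GNT4 (0.84) and NUDT8 (0.86). KRT8 and KRT18 were thus each closer to several genes outside the keratins than to each other.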

How the data were processed

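RNA was sequenced from 18 libraries (3 lines, 2 CRISPR groups, 3 replicates each) with stranded kits; the labels name polyA RNA as the molecule but describe rRNA depletion of total RNA, so which RNA was selected is not settled. The authors pseudo-aligned reads to the hg38 transcriptome with kallisto 0.46.1, imported gene values with tximport and deposited the normalized signal, counts divided by DESeq2 1.26.0 size factors; the annotation release and strand setting are not given in the sources used here. Values carry decimals: 20.7% to 42.3% of low values were whole multiples of the commonest one (tolerance 0.03), so reads were not recovered and no count test was run. Of 60579 rows, 24646 had no values. The authors' columns of fold changes and p-values were not used.

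limma 3.58.1 (R 4.3.3; lmFit, eBayes with trend) was fitted to log2(value + 1), so folds of low genes are understated, over genes with a mean of at least 10 in the libraries fitted: each line alone for METTL3 CRISPR, 9 controls for lines, 18 libraries for interactions. Tests were two-sided and tested on simulated data. Replicate letters counted as pairs where every same-letter correlation of deviations, over 12460 genes, was above 0.1: MCF10A 0.268, 0.303 and 0.172, MCF10AT1 0.159, 0.4 and 0.563. In MCF10CA1h (-0.027, -0.029 and 0.107) they did not. The rule looks at same letters only, and in MCF10AT1 control b also correlated with METTL3 CRISPR a at 0.321, so pairing is uncertain there. Alternatives were the pseudocount, the filter, the trend, 2 scalings, the replicate block, a joint fit and leaving out each library.

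Members and lists were chosen with earlier results of these data known. All 6 members were named, with METTL3, and from each list at most the 3 called genes furthest from 0; CDH1, ESR1, KRT5, KRT83, PTPRC, KRT7-AS, the per-kilobase sums and the word counts were added after values were seen. Transcript lengths and sequences came from GENCODE on GRCh38, aligned with Biopython 1.88; the authors' transcriptome may differ from it. A search for a short motif in the coding sequences is not reported here.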

Additional observations from a re-analysis of the deposited data

Results flagged for a closer look

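The METTL3 CRISPR effect on KRT80 differed between lines in the interaction test: it was higher in MCF10CA1h than in MCF10AT1 by 1.91 on the log2 scale (limma adjusted p = 0.00886, called in 20 of 20 alternative fits) and higher than in MCF10A by 1.82 (adjusted p = 0.0327, called in 10 of 20). The second of these was lost when libraries were scaled to equal sums (1.67, adjusted p = 0.0618). It was also lost without MCF10A control a, any MCF10A METTL3 CRISPR library, any MCF10CA1h control, or MCF10CA1h METTL3 CRISPR a or c, with values of 1.50 to 1.93 and adjusted p of 0.051 to 0.0812. For KRT81 the effect in MCF10CA1h exceeded that in MCF10AT1 by 1.84 (adjusted p = 0.0304, called in 14 of 20 alternative fits). It was lost without MCF10AT1 METTL3 CRISPR a or c, MCF10CA1h control a or b, or MCF10CA1h METTL3 CRISPR b or c (1.65 to 1.84, adjusted p of 0.0502 to 0.0717).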

How the results depend on the processing

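Calls were fewer or more as follows. In MCF10A METTL3 CRISPR against control, 0 members passed, 3 with the replicate block and 1 in the joint fit. In MCF10AT1, 1 passed, 0 with no filter on low values or no intensity trend, 3 with the replicate block and 3 in the joint fit, and 0 to 1 when a library was left out. In MCF10CA1h, 2 passed, 0 with no filter, no trend or the joint fit, and 0 to 2 when a library was left out; there the letters are not pairs, and the block kept 2. METTL3 in MCF10CA1h (-0.49) lost its call with no filter (adjusted p = 0.119), no trend (0.0742) and the joint fit (0.501), and read -0.56 to -0.40 with a library left out. For MCF10AT1 against MCF10A controls, 5 passed, 2 with no filter and 2 to 6 leaving libraries out, and KRT7 also passed at equal sums (1.10, adjusted p = 0.0451) and in the joint fit (1.24, 0.0204); for MCF10CA1h against MCF10AT1, 0, and 0 to 1. Interactions gave 0 (MCF10AT1 and MCF10A; 1 with the replicate block, 0 to 1 leaving libraries out), 1 (MCF10CA1h and MCF10A; 0 at equal sums, 3 with the block, 0 to 1) and 2 (MCF10CA1h and MCF10AT1; 3 with the block, 1 to 3). In interactions with MCF10CA1h, whose letters are not pairs, the block added KRT81 (adjusted p = 0.0138) and KRT7 (0.0333) against MCF10A and KRT18 (0.0367) against MCF10AT1. The block changed no control-line count. For the blocked fits the share of all genes passing is not given here, so their counts cannot be set against it.

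Equal sums turned KRT8 to -0.01 in MCF10CA1h and to -0.13 in the MCF10CA1h and MCF10A interaction. Leaving out libraries turned the sign of values near 0: KRT8 in MCF10A -0.32 to 0.49 and in MCF10CA1h -0.12 to 0.14, KRT7 in MCF10AT1 -0.54 to 0.44, in controls of MCF10CA1h against MCF10AT1 KRT18 -0.09 to 0.61, KRT80 -0.07 to 0.13 and KRT81 -0.25 to 0.77, and in interactions KRT18 -0.52 to 0.20, KRT80 -0.55 to 0.17 and KRT81 -0.61 to 0.40 (MCF10AT1 and MCF10A) and KRT8 -0.44 to 0.37 (MCF10CA1h and MCF10A). Equal sums moved the median of all genes by -0.26 to 0.11, and changed calls over all genes in MCF10CA1h from 1196 higher and 733 lower to 1043 and 1035, and in the MCF10AT1 and MCF10A interaction from 1773 and 1664 to 1340 and 2044. Other causes of these changes were not tested. Depth is unknown, so KRT19, at 0 to 60.4, can only be called near the floor.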
